A study of Mus musculus with 8 samples.

Results

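The BCL2 family holds the proteins that decide whether mitochondria release the signals for apoptosis, and 10 of its genes were examined here. The 10 genes were listed by name: the survival genes Bcl2, Bcl2l1 and Mcl1, the pore-forming effectors Bax and Bak1, and the BH3-only genes Bbc3, Pmaip1, Bcl2l11, Bid and Bad. All array probes assigned to these genes through their RefSeq transcript were taken, 16 probes in 43 spots per array. All 10 genes and all 16 probes were above background on every array, among 17302 genes that passed the filter on dim probes.

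Transcripts were measured on 8 one-colour arrays of mouse haematopoietic stem and progenitor cells, 1 array for each culture. Bone marrow depleted of mature lineages was taken from 4 mice of genotype Runx1 Δ/Δ (mixed C57Bl/6 and 129SvJ), grown for 2 days with SCF, Flt3 ligand, IL-11 and IL-3, and divided between a retroviral control shRNA and a Pcgf1 shRNA. The control group and the Pcgf1 shRNA group therefore hold 4 cultures each, paired by mouse, and the cells of both groups carry the Runx1 deletion, which the series title calls a null background. All cultures were exposed to puromycin (5 µg/ml) for 36 h, starting 24 h after transduction, so RNA was taken from cells that had gone through drug selection. The sources used here give neither the age of the mice nor the driver of the Runx1 deletion, and the series text speaks of a single Pcgf1 shRNA. Pcgf1 encodes a subunit of the Polycomb complex PRC1.1, which is recruited to CpG-rich promoters and represses transcription there.

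In a healthy cell the survival proteins bind and restrain Bax and Bak1 and also capture BH3-only proteins. When BH3-only proteins accumulate after DNA damage, loss of growth factors or other stress, Bax and Bak1 are released, permeabilise the outer mitochondrial membrane and let cytochrome c escape to start the caspases. Blood progenitors depend on Mcl1, Bcl2 and Bcl2l1 to different degrees as they mature, and cytokine signals set part of their balance. These proteins are also controlled by translation, phosphorylation and degradation, which transcript arrays do not measure.

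Pcgf1 signal fell to 39.0% of the control level in the cultures with its shRNA (limma, adjusted p 0.0197, or 0.0139 with mouse as a block). All 10 markers of stem and progenitor cells in a fixed list, among them Kit, Cd34, Flt3 (dim) and Ptprc, were above background on every array. The same held for all tested markers of erythroid cells (10) and monocytes (8), so it does not set progenitors apart from maturing cells. The 75th percentile of the processed signal ranged from 519 to 854 over the arrays, and 0 spots were saturated. Mice 1 and 2 shared a slide and mice 3 and 4 the other, each slide scanned once. A principal component analysis set both arrays of mouse 4 apart: component 1, with 38.2% of the variance, put them at 38.3 and 44.8 and the other arrays between −30.1 and 2.95. Signals are given below as log2 values with the 75th percentile of each array set to 0, and changes as Pcgf1 shRNA minus control shRNA. Levels of different probes are not comparable with each other.

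Promoter sequences are shown for Bcl2, the member with the smallest p, and for Bax, the member with the smallest change. Each is the stretch of 250 bases before a RefSeq gene start (GRCm38.p6), written 5′ to 3′ on the strand of the gene, with CG dinucleotides in capitals. The Bcl2 stretch is chr1:106714291-106714540, minus strand, and the Bax stretch is chr7:45466899-45467148, minus strand.
Bcl2: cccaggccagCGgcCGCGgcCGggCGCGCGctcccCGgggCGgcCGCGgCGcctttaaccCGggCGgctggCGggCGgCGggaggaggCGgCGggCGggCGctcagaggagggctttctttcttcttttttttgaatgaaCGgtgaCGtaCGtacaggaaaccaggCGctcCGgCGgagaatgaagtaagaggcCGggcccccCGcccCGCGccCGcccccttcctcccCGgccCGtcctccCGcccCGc
Bax: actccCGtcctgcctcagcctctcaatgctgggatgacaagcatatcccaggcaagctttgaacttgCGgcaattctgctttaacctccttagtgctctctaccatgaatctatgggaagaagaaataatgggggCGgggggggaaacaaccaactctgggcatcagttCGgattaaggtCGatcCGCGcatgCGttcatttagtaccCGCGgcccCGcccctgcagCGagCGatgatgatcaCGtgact

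The Bcl2 stretch holds 36 CG dinucleotides and the Bax stretch 14, where the median over all 32851 promoter stretches of this length was 6. At least 36 were found in 2.6% of all stretches and at least 14 in 29.4%. The other members with a stretch in the table ranged from 0 CG, at 1 of the 3 starts of Bcl2l1, to 37, at 1 of the 3 starts of Bbc3. Mcl1 had 26, Bcl2l11 24 and 30, Bad 21 and 18, Bid 18 and Bak1 8. The motif TGTGGT, the core bound by Runx proteins, was searched on both strands and found in 1 of the 15 member stretches, that of Bak1, and in 14% of all stretches. A CG count or a motif match describes these letters and says nothing about binding.

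None of the 10 members passed an adjusted p of 0.05 in limma without a block, where 132 of 17301 genes (0.763%) did, 103 higher and 29 lower (48 and 24 with normexp background correction). At an unadjusted p under 0.05, 3 of 10 members stood out (Bcl2, Pmaip1 and Bad), beside 12.2% of all genes. With mouse as a block, which compares each Pcgf1 shRNA culture with the control culture of the same animal, Bcl2 and Pmaip1 rose and 0 members fell, where 5.32% of genes passed (2.91% higher, 2.42% lower). Those were 503 and 418 genes, and 535 and 756 with normexp and the block. The unadjusted count was then 4 of 10, with Bbc3 added, beside 23.5% of all genes. Of the members 7 were higher and 3 lower, with a median change of 0.11 (0.00 over all genes), and 5 members moved the same way in all 4 mice, beside 31.7% of genes. All changes were small: by the brightest probe of each gene, the widest were 1.33-fold for Bcl2 and 1.32-fold for Pmaip1.

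**Figure D1:**
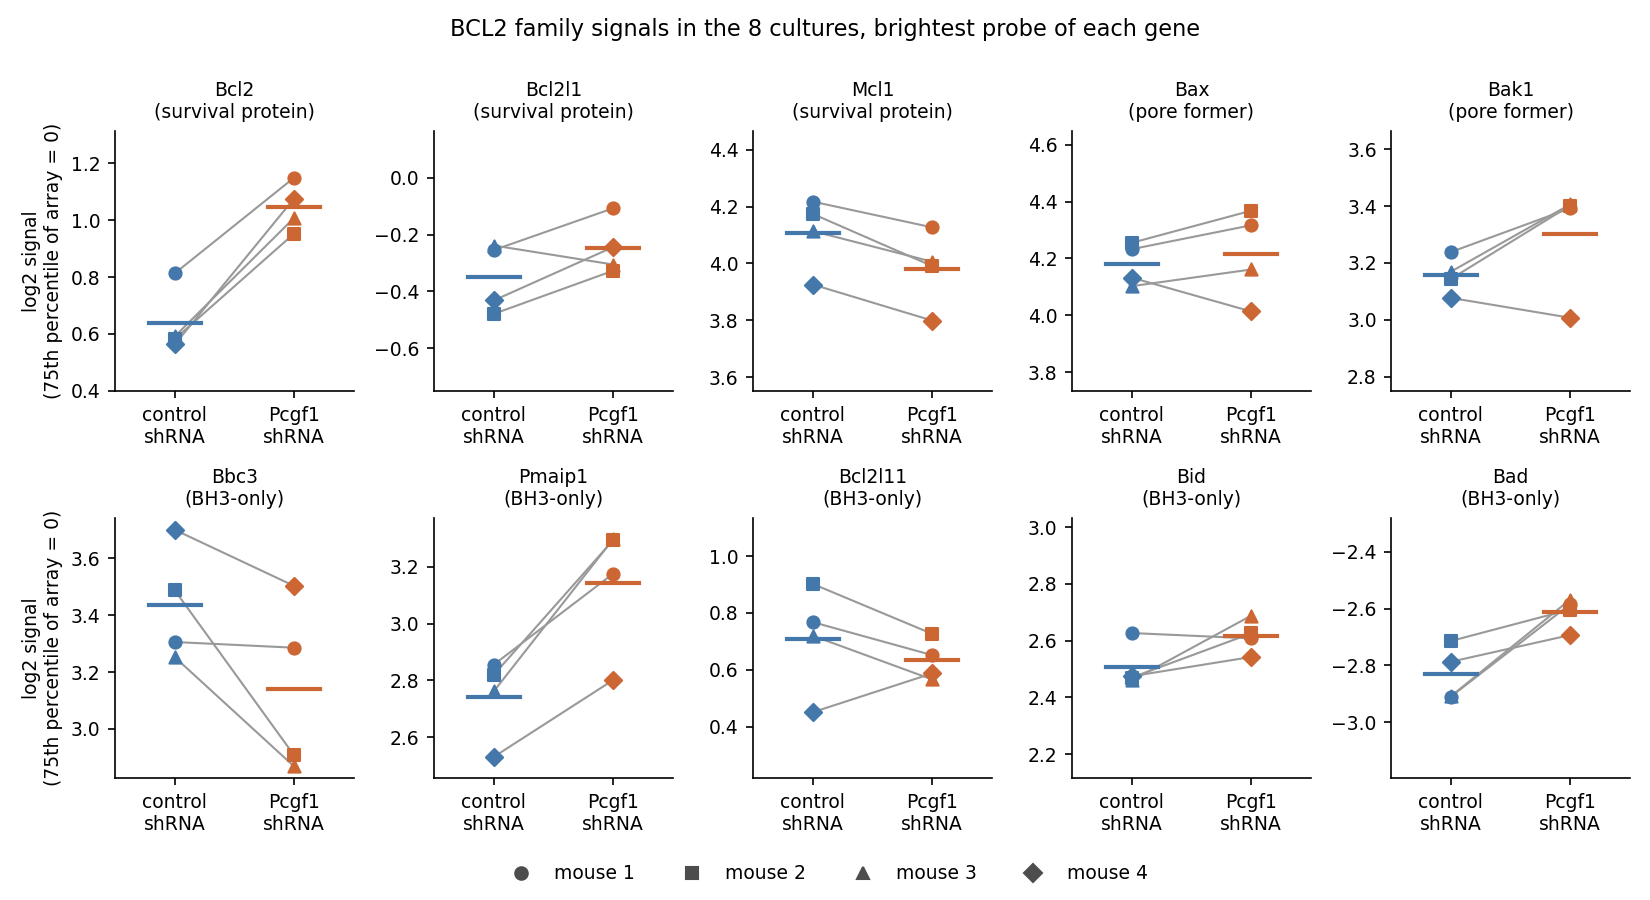
Log2 signal of the brightest probe of each member (75th percentile of an array set to 0) in the control shRNA and Pcgf1 shRNA culture of each mouse; symbols are mice, grey lines join cultures of the same mouse, bars are group means, and all panels span the same number of log2 units. Bcl2, Pmaip1 and Bad were higher and Mcl1 and Bbc3 lower in 4 of 4 mice (31.7% of all genes moved the same way in all 4). Only in the panels of Bcl2 and Bad do the groups not overlap, as held for 7.14% of all genes.

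Bcl2, the founding survival gene of the family (chromosome 1, 106538176 to 106714290, GRCm38.p6), was higher with the Pcgf1 shRNA on both of its probes. On the brighter probe, A_51_P380013, the control cultures of mice 1 to 4 read 0.81, 0.58, 0.59 and 0.56 and the Pcgf1 shRNA cultures 1.15, 0.95, 1.01 and 1.08. Every Pcgf1 shRNA culture lay above every control culture, which held for 4.24% of all genes (7.14% in either direction). The group means were 0.64 ± 0.12 and 1.05 ± 0.09 (SD, n = 4 each), a change of 0.41 (SE 0.09; 95% interval 0.21 to 0.61) or 32.8% on the linear scale. The limma adjusted p was 0.0905 without a block and 0.0342 with mouse as a block (interval 0.24 to 0.58). Within mice the change was 0.34, 0.37, 0.42 and 0.51, and the slides gave 0.35 (mice 1 and 2) and 0.47 (mice 3 and 4) when fitted alone. The call with the block was lost when both arrays of any mouse were left out (adjusted p 0.0735, 0.173, 0.112 and 0.0718 without mice 1 to 4), while the change stayed between 0.37 and 0.43.

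The dimmer Bcl2 probe, A_52_P534870, which the files assign to another RefSeq transcript of the gene, was printed in 10 spots per array. The control cultures read −0.73, −0.85, −0.85 and −0.18 and the Pcgf1 shRNA cultures −0.33, −0.48, −0.27 and 0.41. On this probe the groups overlapped, because both cultures of mouse 4 were high. They lay 0.63 (control) and 0.76 (Pcgf1 shRNA) above the mean of the other mice, against −0.10 and 0.04 on the brighter probe. The SD over the 10 spots of an array was 0.06 to 0.10. The change between the groups was 0.48 (SE 0.22), with 0.40, 0.37, 0.58 and 0.58 in mice 1 to 4. Adjusted over all probes tested, p was 0.446 without a block and 0.0292 with mouse as a block, in a fit where 4.97% of probes passed (0.629% without the block). Both Bcl2 probes, and the single Pmaip1 probe, were the 3 of 16 member probes that passed with the block.

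**Figure D2:**
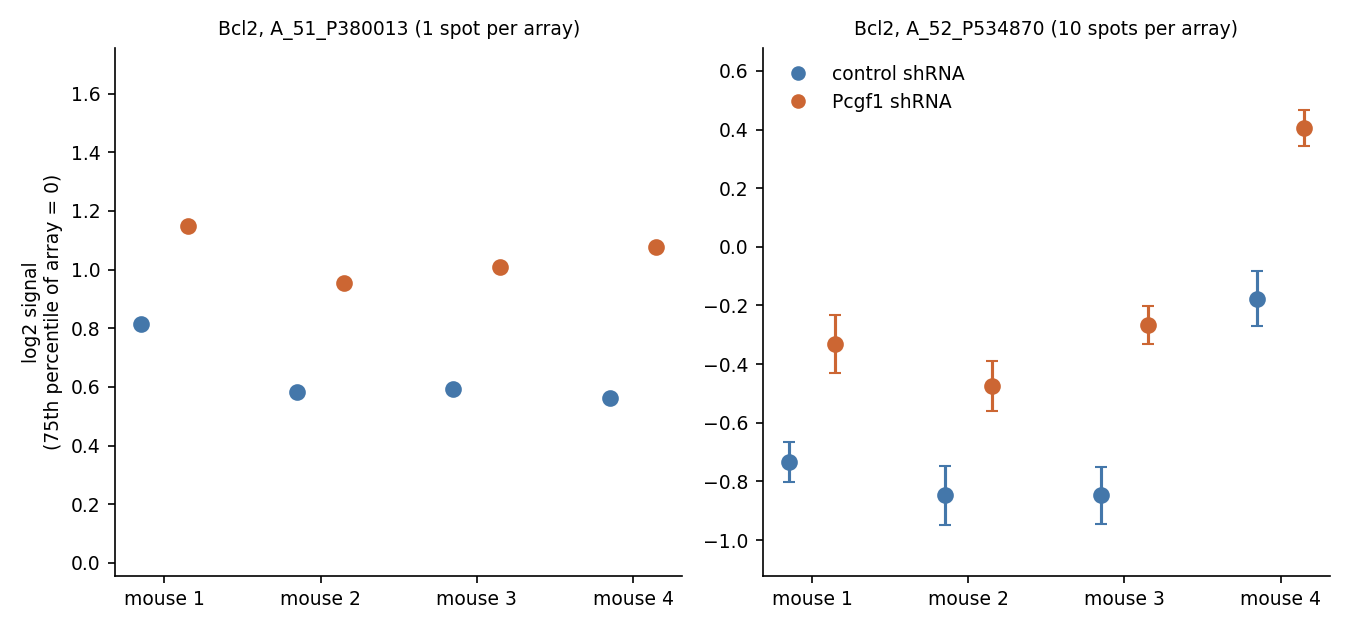
Log2 signal of the Bcl2 probes A_51_P380013 (left, 1 spot) and A_52_P534870 (right, 10 spots) in each mouse; on the right the error bars are the SD over the 10 spots of an array, a measure of printing and reading error only. The Pcgf1 shRNA culture is above the control culture in 4 of 4 mice on both probes, and mouse 4 is high on the right panel only.

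Bcl2l1, which encodes the survival protein BCL-XL and is needed by maturing red cells, did not pass on any of its 3 probes. On the brightest, A_52_P148861 (10 spots), controls read −0.25, −0.48, −0.24 and −0.43 and Pcgf1 shRNA cultures −0.11, −0.33, −0.31 and −0.24. The groups overlapped, and the culture of mouse 3 went the other way from the rest. The change was 0.10 (SE 0.09; interval −0.11 to 0.32), with a limma adjusted p of 0.703 (block 0.461). The dimmest probe gave −0.0014. The third probe gave 0.36 (SE 0.26), of which most came from the Pcgf1 shRNA culture of mouse 3, at −0.82 where the other 7 arrays lay between −2.16 and −1.73.

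Mcl1, a short-lived survival protein on which stem cells and myeloid progenitors depend, was slightly lower in 4 of 4 mice on its brighter probe, a direction shared by 16.2% of genes. Controls read 4.22, 4.17, 4.11 and 3.93 and Pcgf1 shRNA cultures 4.13, 3.99, 4.01 and 3.80. The ranges overlapped widely, and mouse 4 was the lowest of both groups. The change was −0.13 (SE 0.10; interval −0.36 to 0.11) and did not pass (limma adjusted p 0.670, block 0.304). The second probe gave −0.12 (SE 0.08), lower in 3 of 4 mice.

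The effectors Bax and Bak1, either of which can open the mitochondrial outer membrane, did not pass. Bax read 4.23, 4.26, 4.10 and 4.13 in controls and 4.32, 4.37, 4.16 and 4.01 with the Pcgf1 shRNA. Mice 1 to 3 were marginally higher and mouse 4 lower. The change of 0.03 (SE 0.10) had a 95% interval of −0.19 to 0.26, or −0.15 to 0.22 with mouse as a block (limma adjusted p 0.927 and 0.823), and its sign turned to −0.03 on the slide of mice 3 and 4. The SD over the 10 Bax spots of an array was 0.02 to 0.06.

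Bak1 had the same pattern over mice on its brighter probe. Controls read 3.24, 3.14, 3.17 and 3.08 and Pcgf1 shRNA cultures 3.39, 3.40, 3.41 and 3.01. Mice 1 to 3 were higher with the Pcgf1 shRNA, and the culture of mouse 4 was below all controls. The change was 0.14 (SE 0.11; limma adjusted p 0.651, block 0.355) and 0.22 without mouse 4 (adjusted p 0.133, block 0.144). The second Bak1 probe gave −0.04 (SE 0.10), so its probes differed in sign, and their mean gave 0.05.

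The BH3-only members differed in sign, with 3 higher and 2 lower. Pmaip1 (Noxa, chromosome 18, 66458604 to 66465558), which binds Mcl1 and is induced by p53 and by other stress, was higher in 4 of 4 mice. The same held for 15.5% of all genes. Controls read 2.86, 2.82, 2.76 and 2.53 and Pcgf1 shRNA cultures 3.18, 3.29, 3.30 and 2.80. The groups overlapped only through mouse 4, which was the lowest in both. The means were 2.74 ± 0.15 and 3.14 ± 0.23 (SD, n = 4 each), a change of 0.40 (SE 0.13; interval 0.09 to 0.70) or 31.9%, with 0.32, 0.47, 0.53 and 0.27 in mice 1 to 4. In limma Pmaip1 rose with mouse as a block (adjusted p 0.0471) and did not pass without it (0.272). Leaving out mouse 4, whose arrays stood apart, gave 0.44, which passed without the block (0.0426) and not with it (0.0714). The call with the block was lost without any of the other mice too (adjusted p 0.0902, 0.228 and 0.155 without mice 1, 2 and 3).

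Bbc3 (Puma, chromosome 7, 16308398 to 16318334), a p53-induced BH3-only protein that binds all survival proteins, lay in the opposite direction from Pmaip1. Controls read 3.31, 3.49, 3.25 and 3.70 and Pcgf1 shRNA cultures 3.29, 2.91, 2.87 and 3.50. The drop was widest in mice 2 and 3 (−0.58 and −0.38) and close to 0 in mouse 1 (−0.02), and the groups overlapped. The change was −0.30 (SE 0.17; interval −0.68 to 0.09), or −18.5%, and passed neither without a block (limma adjusted p 0.542) nor with it (0.172; interval −0.56 to −0.03). Both cultures of mouse 4 were above the mean of the other mice, by 0.35 and 0.48.

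Bad, which growth factor signalling holds in check by phosphorylation, was dim and slightly higher. Controls read −2.91, −2.71, −2.91 and −2.79 and Pcgf1 shRNA cultures −2.58, −2.60, −2.57 and −2.69. The groups did not overlap, as held in this direction for 4.24% of all genes, but by a narrow gap, from −2.71 to −2.69. The change was 0.22 (SE 0.08; interval 0.04 to 0.40), with 0.33 and 0.34 in mice 1 and 3 and 0.11 and 0.09 in mice 2 and 4. It did not pass (limma adjusted p 0.318, block 0.175), and normexp background correction took it to 0.07.

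Bcl2l11 (Bim), the main BH3-only protein released when blood cells lose cytokines, gave no change that passed on either probe. The brighter probe read 0.77, 0.90, 0.72 and 0.45 in controls and 0.65, 0.73, 0.57 and 0.59 with the Pcgf1 shRNA, and mouse 4 went the other way from mice 1 to 3. The change was −0.08 (SE 0.11; interval −0.32 to 0.17; limma adjusted p 0.827) there and 0.10 (SE 0.18) on the dimmer probe, so the probes differed in sign. Centring arrays on the median in place of the 75th percentile moved the median of all genes to 0.10 and Bcl2l11 to 0.02. It took Bcl2l1 to 0.21, Bak1 to 0.25, Bid to 0.21, Mcl1 to −0.03 and Bbc3 to −0.19, none of which passed.

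Bid, which caspase-8 cleaves to link death receptors to mitochondria, read 2.63, 2.47, 2.46 and 2.47 in controls. With the Pcgf1 shRNA it read 2.61, 2.63, 2.69 and 2.54. The groups overlapped, through the control culture of mouse 1, the highest of its group. The change was 0.11 (SE 0.08; interval −0.07 to 0.28; limma adjusted p 0.625, block 0.437).

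**Figure D3:**
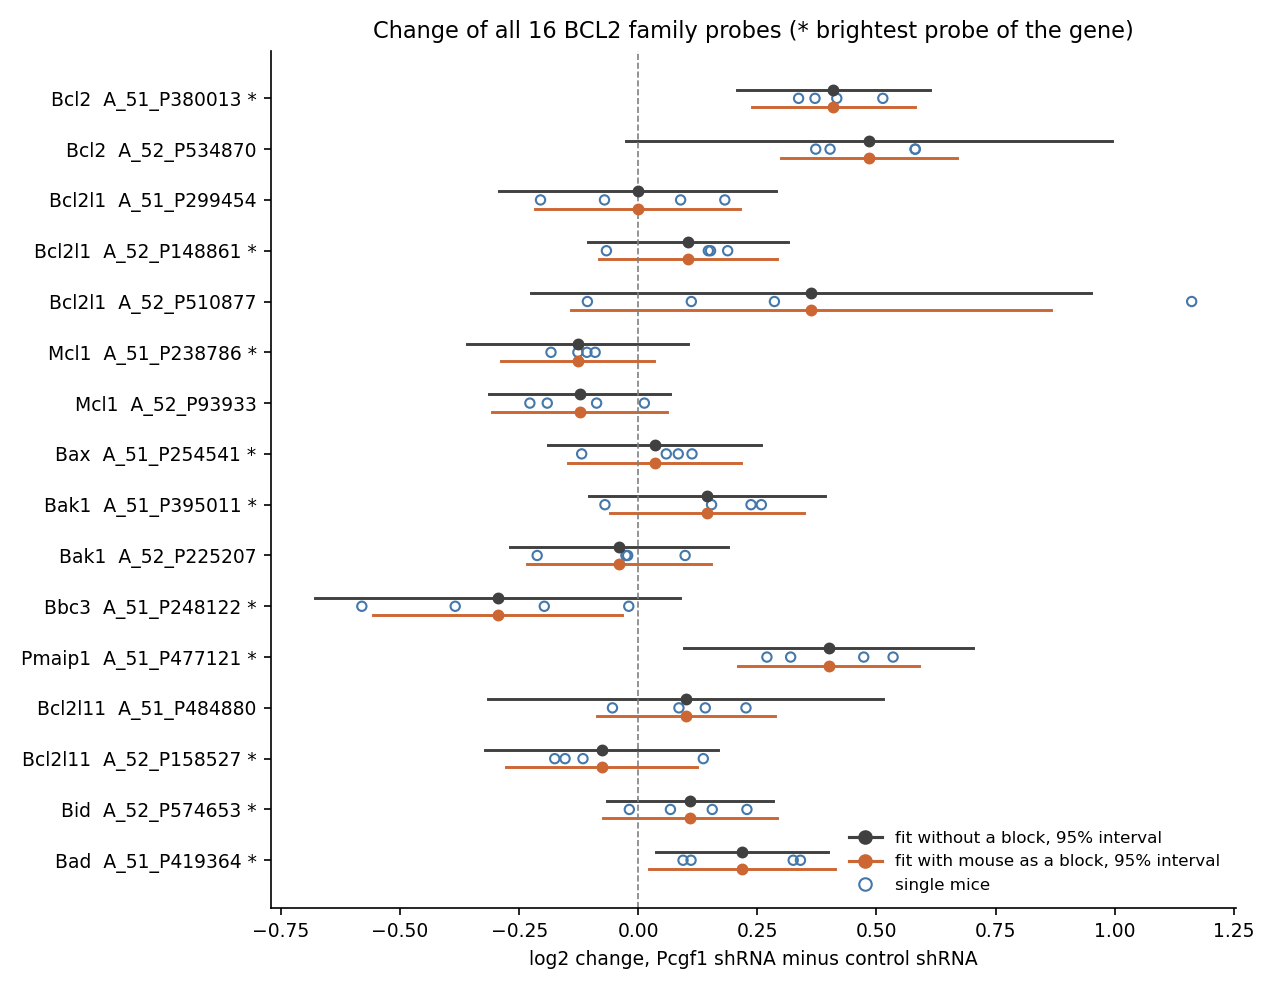
Log2 change (Pcgf1 shRNA minus control shRNA) of all 16 member probes, with 95% intervals from limma without a block (dark) and with mouse as a block (orange), and the change in each mouse (open circles). The intervals of both Bcl2 probes and of Pmaip1 with the block lie above 0, from 0.21 upwards, that of Bad reaches down to 0.02, and 1 Bcl2l1 probe has a single mouse at 1.16.

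Markers of maturing neutrophils also differed between the groups. Of 15 such markers 12 were tested, of which 10 were above background on all 8 arrays. Of these 10, 3 fell (Fcnb, Fpr1 and Fpr2) and 0 rose without a block, and the fit blocked on mouse called 7 lower and 1 higher. The summed signal of all 12 tested markers, in multiples of the 75th percentile, was 86.1 to 235 in controls and 12.2 to 45.9 with the Pcgf1 shRNA. Such a sum adds probes whose levels are not comparable, so the brightest weigh most, here S100a9 (log2 6.07 to 7.55 in controls). Ngp and Ltf cleared background in all 4 control cultures but in 0 of the 4 Pcgf1 shRNA cultures. They passed the filter on dim probes through the controls alone and are left out of these counts. They are part of the sum, where both are dim (log2 means of −3.93 and −3.28 in controls). The summed progenitor markers were 90.3 to 93.0 in controls and 99.8 to 124 with the Pcgf1 shRNA, and Cd34 rose. The part of these shifts in the Bcl2, Pmaip1 and Bbc3 values was not tested. In such bulk cultures fewer cells of a type and less RNA per cell cannot be told apart.

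Most markers of other mature myeloid and erythroid cells were lower too. Summed erythroid markers were 123 to 259 in controls and 53.9 to 189 with the Pcgf1 shRNA (10 of 11 tested, 0 passed, 3 fell with the block). Their brightest probe, that of Hba-a1 (log2 6.39 to 7.37 in controls), weighs most in this sum and was lower in 3 of 4 mice. Summed monocyte markers were 80.3 to 176 and 63.0 to 116 (8 of 10 tested, 0 passed, 3 fell with the block), and eosinophil markers 7.07 to 17.5 and 2.41 to 5.24 (6 of 8 tested, 0 passed, 2 fell and 1 rose with the block). Their part in the member values was not tested. The B cell markers Ebf1, Pax5 and Ms4a1 and the T and NK cell markers Cd3g, Cd8a and Klrb1c did not pass the filter on dim probes. Of the 4 B cell markers tested 0 passed, of the 5 T and NK cell markers 1 (Lck) rose with and without the block, and of 9 mast cell and basophil markers 1 (Tpsb2) fell, or 3 with the block. Megakaryocyte markers gave 0 calls of 7, and 5 of 7 stroma and endothelium markers were too dim to test; of the other 2, Pecam1 rose with the block.

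The rest of the BCL2 family was taken from a fixed list of 17 genes, 11 of which were tested. None passed in limma, either without a block or with mouse as a block, and 3 had an unadjusted p under 0.05. With the block joined to the median shift, to normexp or to a filter on all 8 arrays 2 of them passed, and 7 with the block and array weights. Over all 17300 genes 1429 passed with the block and the median shift and 1291 with the block and normexp. With the block and array weights the count over all genes, given in a later section, was larger still, so the 7 are not read as a result about the family. The list median was −0.13, with 5 genes higher and 6 lower. The widest differences of any family gene, members included, were those of Bcl2a1b and Bcl2a1c, copies of the survival gene Bcl2a1 (A1), which is strongly expressed in neutrophils and monocytes. Bcl2a1b read 3.69, 3.85, 4.09 and 3.43 in controls and 3.20, 2.52, 1.88 and 2.63 with the Pcgf1 shRNA. All Pcgf1 shRNA cultures were below all controls, most clearly in mouse 3 (groups without overlap in either direction made up 7.14% of all genes). It was lower by −1.21 (SE 0.27; limma adjusted p 0.0981, block 0.0670). Bcl2a1c gave −1.13 (SE 0.25, limma adjusted p 0.101, block 0.0542). The third gene with an unadjusted p under 0.05 was the BH3-only gene Bmf. Its brighter probe gave −0.41 (SE 0.15, limma adjusted p 0.338, block 0.0501) and its other probe −0.09. The A1 copies are nearly identical in sequence, and a probe may read more than 1 of them.

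Downstream of the mitochondria, the list of apoptosome parts, caspases and their inhibitors had 17 of 18 genes tested, of which 0 passed with or without the block and 2 had an unadjusted p under 0.05. The median was 0.00, with 9 genes higher and 8 lower. The smallest p values belonged to Birc3, an inhibitor of apoptosis (−0.32, SE 0.08, limma adjusted p 0.165, block 0.0650), and Cycs, cytochrome c (−0.36, SE 0.10, adjusted p 0.177, block 0.0554). Cycs read 5.62, 5.67, 5.52 and 5.53 in controls and 5.33, 5.34, 5.25 and 5.00 with the Pcgf1 shRNA. The groups had no overlap, as held in either direction for 7.14% of all genes. Of the death receptor list 9 of 10 genes were tested and 0 passed with or without the block (0 at an unadjusted p under 0.05 without it). Its median was 0.13 with Tnfsf10 counted, a gene whose value is not read as a result (below), and 5 genes were higher and 4 lower. The smallest p values were those of the ligand gene Tnfsf10 (0.45, close to background) and the TNF receptor gene Tnfrsf1a (0.23, SE 0.17, limma adjusted p 0.647). Tnfsf10 was above background in 3 of 4 control cultures and 4 of 4 Pcgf1 shRNA cultures. It passed the filter on dim probes through the Pcgf1 shRNA group alone, so its higher value there is not read as a result.

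Of the list of transcription factors and partners that act on the members, 19 of 20 genes were tested, 0 passed with or without the block, 2 had an unadjusted p under 0.05, and the median was −0.01. Myc, which sensitises cells to apoptosis while it drives growth, was higher in 4 of 4 mice, beside 15.5% of all genes (0.48, SE 0.13, limma adjusted p 0.184, block 0.0648). Ddit3 (Chop), a stress factor that can induce Bcl2l11 and Bbc3, was lower in 4 of 4 mice, beside 16.2% of all genes (−0.51, SE 0.19, limma adjusted p 0.325, block 0.0797). Trp53 itself differed by 0.05 (SE 0.08).

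Among other p53 targets 15 of 16 were tested, 1 rose and 0 fell both without a block and with it, and the list median was −0.01. The gene was Perp, a membrane protein of cell death and cell adhesion, at 0.62, 0.28, 0.23 and 0.40 in controls and 1.32, 1.17, 1.24 and 0.98 with the Pcgf1 shRNA. The groups did not overlap, as held in this direction for 4.24% of all genes. The change was 0.80 (SE 0.11, 1.74-fold, limma adjusted p 0.0264, block 0.0174). The call without a block was lost without mouse 1 (0.83, adjusted p 0.123), mouse 2 (0.77, 0.359) or mouse 3 (0.73, 0.238) and held without mouse 4 (0.87, 0.0329). With the block it was lost without mouse 1 (0.0523) or mouse 2 (0.0998) and held without mouse 3 (0.0389) or mouse 4 (0.0482). Of the 15 genes 7 were higher and 8 lower. The general p53 targets Cdkn1a (0.01) and Mdm2 (−0.08) did not pass. The lowest of the list were Plk2 (−0.59), Phlda3 (−0.52) and Zmat3 (−0.43), each lower in 4 of 4 mice, beside 16.2% of all genes. They did not pass with or without the block either. These 5 genes were named after their values were seen. The family members known as p53 targets spanned both signs: Pmaip1 stood at 0.40, Bax at 0.03 and Bbc3 at −0.30.

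**Figure D4:**
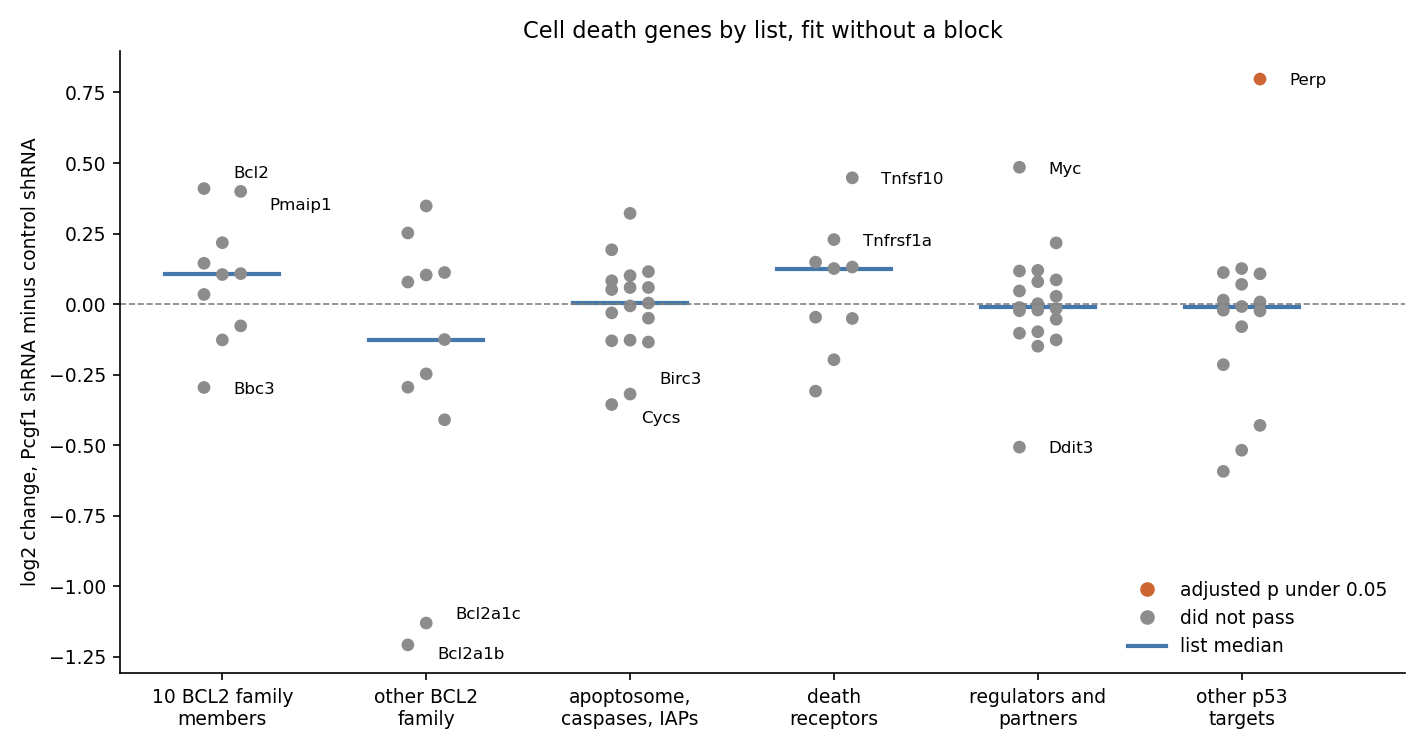
Log2 change (Pcgf1 shRNA minus control shRNA, limma without a block) of every tested gene of the 10 members and of 5 further cell death lists, with the list median as a bar. Perp is the single gene that passed. Bcl2a1b and Bcl2a1c lie lowest at −1.21 and −1.13, and the list medians lie between −0.13 and 0.13. The upper one is that of the death receptors and counts Tnfsf10, which passed the filter on dim probes through the Pcgf1 shRNA group alone.

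Genes with a profile like that of Bcl2 were sought by the root mean square difference between centred log2 signals over the 8 arrays. The search used the same values as the fits. Changes and p values near those of Bcl2 therefore follow from the choice and are not a separate result. Among 11712 named genes the nearest was Slc41a1, a magnesium transporter gene (difference 0.06, where the median gene was at 0.28). Its change was 0.42 (SE 0.07, limma adjusted p 0.0458, block 0.0288). The next were Tmem150a (difference 0.07; change 0.32, adjusted p 0.303, block 0.0623) and Fam83h (difference 0.08; change 0.51, adjusted p 0.114, block 0.0232).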

How the data were processed

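Total RNA (400 ng) from 8 cultures was labelled with Cy3 and hybridised to Agilent whole mouse genome arrays, per the labels. Agilent Feature Extraction 10.1 read the scans (submitters' processing notes). Spot intensity values, as deposited, were background-subtracted and detrended per the file headers, with no scaling between arrays. A value table, also deposited by the authors, is on the log2 scale with each probe centred on its median over the arrays; the array shift behind it is not stated, its column medians were −0.20 to 0.11, and its differences between arrays followed the spot files (r of at least 1.00 over 10093 bright probes). It served as an alternative.

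Here log2 intensities were shifted to a 75th percentile of 0 per array, 242 non-uniform values were left out (0 of them of members) and spots of a probe were averaged. Kept were 22747 of 41174 probes that were well above background on all 4 arrays of a group; the brightest stood for a gene. Probes were named through RefSeq (GRCm38.p6), 24375 of 41174. Tests used limma 3.58.1 in R 4.3.3, two-sided, Benjamini-Hochberg over all genes, without a block as the labels name no test. The fit with mouse as a block stands beside it, since equal numbers mark the same animal; deviations of such arrays correlated with r of 0.44, 0.48, 0.41 and 0.64 in mice 1 to 4. Separate cultures were the replicates. Precision is set by the 4 arrays of a group.

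Named are all members, Pcgf1 and the 3 profiles nearest to the member with the smallest p. Of each of the 5 cell death lists, the genes that passed are named, or otherwise the 2 with the smallest p. Trp53, Bmf, Cdkn1a, Mdm2, Plk2, Phlda3, Zmat3 and the single marker genes were named after their values were seen. The members and lists were chosen with earlier results of these data known. The fits were tested on simulated data. Alternatives covered the block, slide, scaling, background correction (normexp, on the median spot signal in place of the planned mean), filter, probe choice, value table, array weights and left-out arrays. Sequences of probes, proteins and the shRNA were not used here.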

Additional observations from a re-analysis of the deposited data

Results flagged for a closer look

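In groups of 4 arrays, a single array whose gap to its neighbour took up most of the group's range was looked for in each group of each member probe, 32 groups in all, and 4 were found; chance alone gives about 1 in 20 groups. For Bcl2 the control culture of mouse 1 stood high on probe A_51_P380013 (0.81, nearest 0.59), and the control culture of mouse 4 stood high on probe A_52_P534870 (−0.18, nearest −0.73). For Bak1 on probe A_51_P395011 the Pcgf1 shRNA culture of mouse 4 stood low (3.01, nearest 3.39). For Bid on probe A_52_P574653 the control culture of mouse 1 stood high (2.63, nearest 2.47).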

How the results depend on the processing

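Over 38 alternatives Bcl2 kept its direction (0.32 to 0.51), as did Pmaip1 (0.33 to 0.51), Bcl2l1 (0.03 to 0.21), Mcl1 (−0.19 to −0.03), Bak1 (0.05 to 0.25), Bbc3 (−0.45 to −0.19), Bid (0.07 to 0.21) and Bad (0.07 to 0.32). With mouse as a block Bcl2 (0.41) and Pmaip1 (0.40) passed. Joined with the block, both also passed with quantile normalization (0.39 and 0.39), the median shift (0.51 and 0.50), normexp (0.40 and 0.43), 8 arrays above background (0.41 and 0.40), the mean of a gene's probes (0.45 and 0.40), the value table (0.40 and 0.39), array weights (0.39 and 0.45) and population outlier spots left out (0.41 and 0.40). They did not pass with the block and no filter on dim probes, or within a slide. The joined settings and the population outliers were added after the data were seen. With array weights and no block Bcl2 (0.32), Pmaip1 (0.47) and Bad (0.25) passed, and with weights and the block Bbc3 (−0.45). Array weights also raised the count over all genes, given in the next paragraph, above that of every other setting. Without mouse 4 Pmaip1 passed (0.44); leaving out a mouse or an array gave 0.33 to 0.51. Bax turned to −0.03 on the slide of mice 3 and 4 (−0.02 to 0.10 with a mouse or array left out). Bcl2l11 turned to 0.02 with the median shift, with and without the block, and to 0.01 with the mean of its probes, with and without the block. The Pcgf1 call was lost within slides (−1.40 and −1.31) and with no filter (−1.36, block −1.36); with a mouse or array left out its change was −1.44 to −1.28 (−1.38 to −1.34 with a mouse left out and the block), and the call was lost without mouse 1, 2 or 3 (adjusted p 0.113, 0.352 and 0.0904 in limma), and with the block without mouse 2 (0.0896).

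The count of genes that passed, 132, was 921 with the replicate block, 0 and 4 within slides, 72 with normexp, 0 with no filter (2199 at an unadjusted p under 0.05 in limma; also 0 with the block) and 1652 with array weights. With the block it was 916 (quantile), 1429 (median shift), 1291 (normexp), 1050 (8 arrays above background), 857 (mean of probes), 877 (value table), 4284 (array weights) and 920 (population outliers left out). It was 0 to 363 with a mouse or array left out (0 without mouse 2 or mouse 3, where 1000 and 1089 genes had an unadjusted p under 0.05 in limma, and 363 without mouse 4; 0, 145, 284 and 306 with the block and a mouse left out). The split turned with the setting: 103 higher and 29 lower, 48 and 24 with normexp, 503 and 418 with the block, 535 and 756 with the block and normexp, 2014 and 2270 with the block and array weights, 1 and 3 on the slide of mice 3 and 4. Of the lists, with the block joined to another setting other than array weights, 0 to 2 other family genes, 0 to 2 apoptosome and caspase genes, 0 death receptor genes, 0 to 1 regulators and 0 to 3 p53 targets passed; with weights and the block these were 7, 4, 3, 2 and 5. The causes were not tested.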

Other observations

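Several members differed between mouse 4 and the other mice by about as much as between the shRNA groups, or by more. It was more, in both groups, for the dimmer Bcl2 probe, Bbc3, the brighter Mcl1 probe and the dimmer Bcl2l11 probe. Their changes between the shRNA groups were 0.48, −0.30, −0.13 and 0.10. The same held for Bax, the dimmer Bak1 probe and the dimmest Bcl2l1 probe, whose changes were 0.03, −0.04 and −0.0014. On the dimmer Bcl2 probe mouse 4 lay 0.63 (control) and 0.76 (Pcgf1 shRNA) above the mean of mice 1 to 3. The brighter Bcl2 probe gave −0.10 and 0.04. Against the mean of mice 1 to 3, mouse 4 read −0.28 (control) and −0.45 (Pcgf1 shRNA) for Pmaip1, −0.24 and −0.24 for Mcl1 on its brighter probe, and −0.49 and −0.44 for Bcl2l11 on its dimmer probe. It read 0.35 and 0.48 for Bbc3, so Pmaip1 and Bbc3 differed in opposite directions between mouse 4 and the others, as they did between the shRNA groups. These offsets are given as values and were not tested.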
